A study of Homo sapiens with 12 samples.

Results

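Krüppel-like factors (KLF) are zinc-finger transcription factors, and 10 KLF genes were followed here in A375 cells, a human melanoma cell line with a mutated BRAF. The members were KLF2, KLF3, KLF4, KLF5, KLF6, KLF7, KLF9, KLF10, KLF11 and KLF13. All were chosen by name, with earlier results of these data known. Each was found by its symbol among the 44659 genes of the count table. They were measured by RNA-sequencing of rRNA-depleted RNA in 12 libraries, 3 in each of 4 groups. The labels call this RNA cytoplasmic, whereas the study's methods speak of total RNA. In the first experiment, cells were cultured for 24 h with MAPK inhibitors (hereinafter MAPKi), that is 500 nM of the BRAF inhibitor vemurafenib with 500 nM of the MEK inhibitor cobimetinib, or with DMSO, the solvent. In the second experiment, cells spent 24 h in glutamine-free medium (Gln-depleted) or in CTRL medium with 2 mM glutamine, with no inhibitor. MAPKi and DMSO cells were also grown with 2 mM glutamine. The first question is which KLF mRNAs change when the MAPK pathway is blocked, and the second is which change when glutamine is withdrawn. All groups are the same line, so they model BRAF-mutated melanoma in 1 genetic background, and nothing in the labels says whether libraries of a group came from separate cultures, except that replicate 1 of CTRL and Gln-depleted cells is of another experimental batch than replicates 2 and 3. The p-values therefore measure the spread between these libraries.

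KLF proteins bind GC-rich and CACCC-type DNA through zinc fingers at their C-terminal end, and the rest of each protein decides which partners it brings to a promoter. KLF2, KLF4, KLF5, KLF6 and KLF7 mainly work as activators through acetyltransferases such as p300. KLF3 works as a repressor that recruits the CtBP proteins, and KLF9, KLF10, KLF11 and KLF13 recruit the SIN3A corepressor. Several members are early-response genes whose mRNA is short-lived, and KLF4 is known both as a factor of cell cycle arrest and as a reprogramming factor.

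The 12 libraries held between 31056296 and 40071368 counted reads. Values below are read counts scaled to the normalised library size (CPM), so a level is relative to all reads counted on the tested protein-coding genes, and fewer cells carrying a transcript cannot be told apart from less transcript per cell. DUSP6, a phosphatase gene induced by ERK, had a median of 139 CPM in DMSO and 0.215 CPM in MAPKi libraries, and TRIB3, a gene of the amino acid response, had a median of 74.0 CPM in CTRL and 603 CPM in Gln-depleted libraries. Both genes also moved in the other experiment, in the opposite direction. The median of DUSP6 was 182 CPM in CTRL and 444 CPM in Gln-depleted libraries, and that of TRIB3 was 40.2 CPM in DMSO and 19.3 CPM in MAPKi libraries. SOX10, the lineage factor of melanocytes, had a median between 420 and 911 CPM in the 4 groups. The summed level of 7 melanocyte and melanoma markers was 1415 to 1499 CPM in DMSO and 9278 to 11799 CPM in MAPKi libraries, and 1043 to 1290 CPM in CTRL and 678 to 754 CPM in Gln-depleted libraries. Most of the rise with MAPKi came from the pigment enzyme gene DCT (172 to 256 CPM in DMSO, 7408 to 9833 CPM in MAPKi), whereas S100B of the same list fell (177 to 191 and 40.4 to 44.7 CPM). Of the markers of other cell types, the fibroblast list of 4 genes summed to 4.01 to 4.78 CPM in DMSO and 13.9 to 14.5 CPM in MAPKi libraries, mostly from PDGFRB, while DCN and COL1A2 were at or near 0. The 3 endothelial markers summed to 4.62 to 5.34 CPM in DMSO and 8.59 to 9.68 CPM in MAPKi libraries, all from VWF but for at most 1 read of PECAM1 or CDH5 in a library. In CTRL and Gln-depleted libraries the fibroblast list summed to 3.84 to 7.16 and 7.24 to 8.94 CPM, and the endothelial list to 2.204 to 5.64 and 3.67 to 6.67 CPM. The keratinocyte and leukocyte lists, each of 3 genes, summed to at most 0.214 and 0.553 CPM in any library. The part of these markers' cells, if any, in the KLF values was not tested.

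The promoters of 3 members are shown. KLF4 and KLF13 had the largest changes with MAPKi, and KLF2 has the only match to the MEF2 motif, through which the MEK5-ERK5 kinases are known to induce KLF2 and KLF4. Each line gives the 250 bases before the transcription start site of the RefSeq annotation on GRCh38.p14, 5′ to 3′ on the strand of the gene. None of these stretches touched an exon of its gene in GENCODE. The KLF4 stretch nonetheless lies inside the GENCODE span of its gene (chr9:107484852-107490482), so it is not upstream of every annotated start. The KLF2 stretch is chr19:16324576-16324825 on the plus strand, the KLF4 stretch chr9:107489770-107490019 on the minus strand and the KLF13 stretch chr15:31326585-31326834 on the plus strand. Capitals mark every match, on either strand, to the searched motifs that are named after the sequences.

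KLF2: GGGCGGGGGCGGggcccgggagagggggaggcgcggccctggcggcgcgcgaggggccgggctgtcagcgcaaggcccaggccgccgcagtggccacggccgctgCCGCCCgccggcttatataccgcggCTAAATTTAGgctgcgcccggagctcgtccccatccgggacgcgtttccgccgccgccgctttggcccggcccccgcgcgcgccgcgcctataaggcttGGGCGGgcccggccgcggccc

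KLF4: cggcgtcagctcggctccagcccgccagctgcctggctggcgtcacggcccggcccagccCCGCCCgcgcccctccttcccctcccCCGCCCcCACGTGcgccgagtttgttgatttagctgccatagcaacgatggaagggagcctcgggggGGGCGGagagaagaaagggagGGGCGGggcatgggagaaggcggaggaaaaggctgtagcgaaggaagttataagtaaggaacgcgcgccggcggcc

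KLF13: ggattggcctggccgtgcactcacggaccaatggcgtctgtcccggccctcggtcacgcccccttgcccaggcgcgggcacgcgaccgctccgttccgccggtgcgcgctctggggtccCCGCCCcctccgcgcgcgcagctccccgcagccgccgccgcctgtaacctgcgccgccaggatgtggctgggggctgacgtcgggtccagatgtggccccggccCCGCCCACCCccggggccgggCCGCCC

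The motifs searched were the GC box (GGGCGG), the CACCC element (CCACCC), the E-box (CACGTG), the cyclic AMP response element (TGACGTCA), the AP-1 site (TGACTCA), the ETS site (CCGGAAG), the FOXO site (GTAAACA), the MEF2 motif and the CArG box. In KLF2, capitals mark 4 GC boxes and a MEF2 motif that starts 120 bases before the start site. In KLF4, they mark 4 GC boxes and an E-box that starts 157 bases before the start site, next to the GC box at 164 bases. In KLF13, they mark 3 GC boxes and a CACCC element, which overlaps the GC box at 27 bases before the start site. RefSeq windows of 300 bases, which also take in the 50 bases after the start, were matched for 8 of the 10 members, with 13 windows in all since KLF5, KLF7 and KLF11 have several start sites. The GC box was in 8 of the 13 windows, of 7 members, and in 44.95% of all 35116 promoter windows. The E-box was in 4 of the 13 windows, 1 each of KLF4, KLF6, KLF7 and KLF11, and in 7.26% of all windows. In 1 window each, a MEF2 motif was in KLF2 (0.572% of all windows), a CArG box in KLF7 (1.29%), a cyclic AMP response element in KLF11 (1.85%) and a CACCC element in KLF7 and KLF13 (34.3%). No AP-1, ETS or FOXO match was in any of the 13 windows, against 4.95%, 10.3% and 3.42% of all windows. A match describes letters only and does not show binding.

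KLF9, a repressor gene known to respond to glucocorticoids and thyroid hormone, was the most abundant member per length of transcript in all 4 groups. Per kilobase of exonic sequence, its mean level was 73.9 ± 3.48 CPM (SD, n = 3) in DMSO and 46.6 ± 8.47 CPM (SD, n = 3) in CTRL libraries. In DMSO, the order of the next members was KLF6 with 13.1 CPM per kb, KLF3 with 8.29, KLF10 with 7.50 and KLF7 with 2.73, and the libraries of neighbours in this order did not overlap. KLF4, KLF11 and KLF5 followed with means of 1.71, 1.64 and 1.64 CPM per kb, and their libraries overlapped. KLF13 and KLF2 were lowest, with 0.557 and 0.528 CPM per kb, and their libraries overlapped as well. In CTRL medium the order was KLF9, KLF6, KLF10, KLF3, KLF4, KLF7, KLF11, KLF5, KLF13 and KLF2. There, the libraries of KLF11 and KLF5 overlapped, as did those of KLF13 and KLF2. KLF4 ranked 6 of 10 in DMSO and 10 of 10 in MAPKi libraries, whereas it ranked 5 of 10 in CTRL and 2 of 10 in Gln-depleted libraries. The share of KLF4 in the summed level per kb of the 10 members was 1.69%, 1.64% and 1.26% in the DMSO libraries and 0.170%, 0.167% and 0.165% in the MAPKi libraries. The same share was 4.23%, 3.21% and 3.79% in the CTRL libraries and 21.7%, 18.4% and 16.7% in the Gln-depleted libraries, so that the 2 groups did not overlap in either experiment. KLF9 made up 64.7% to 67.9% of the sum in DMSO and 75.7% to 77.1% in MAPKi libraries. These shares describe the libraries and were not tested.

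**Figure D1:**
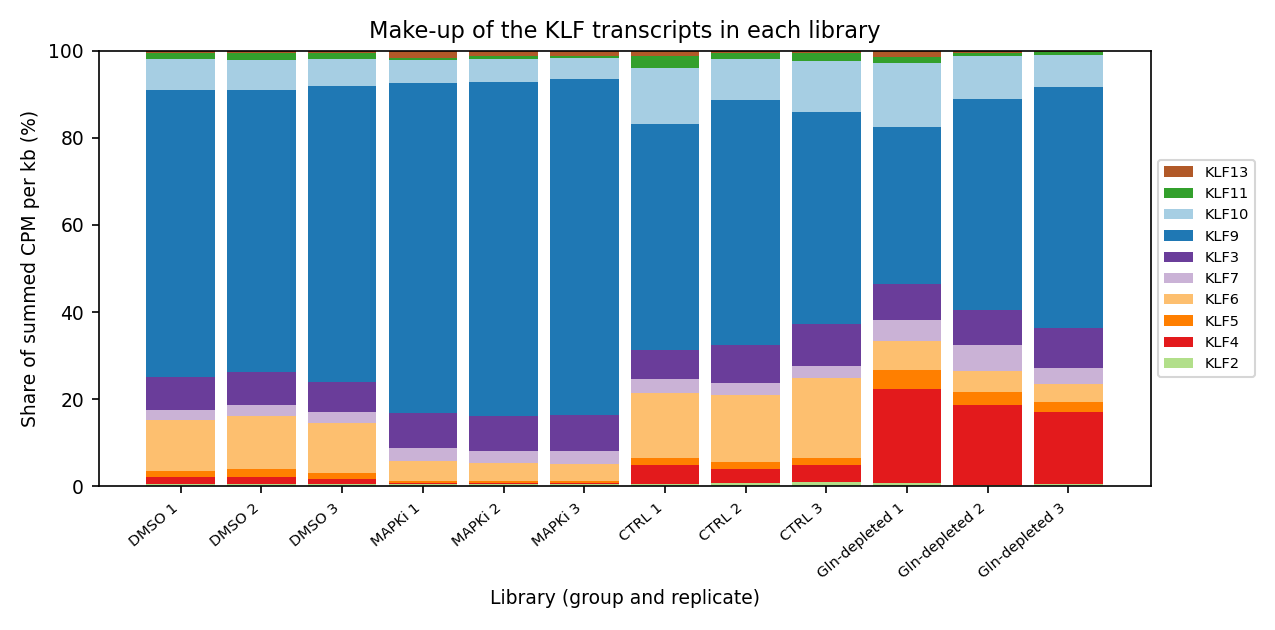
Stacked bars give, for each of the 12 libraries on the x axis, the share in percent of each of the 10 KLF genes in their summed CPM per kb of exonic sequence on the y axis, so that each bar adds to the whole. KLF9 is the widest band in every library, and the KLF4 band is 16.7% to 21.7% in the Gln-depleted libraries and at most 0.170% in the MAPKi libraries.

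In MAPKi-treated cells, KLF13, KLF7, KLF2, KLF9, KLF3 and KLF10 were upregulated and KLF4, KLF5, KLF6 and KLF11 were downregulated, as compared to DMSO. The largest rise was that of KLF13, 4.48-fold, and the largest fall was that of KLF4, to 0.184 of its DMSO level. All 10 members had enough counts to be tested, and all 10 passed an adjusted p of 0.05 in the quasi-likelihood test of edgeR, adjusted by Benjamini-Hochberg over all protein-coding genes tested. The 6 higher members stand against 39.3% of all 12592 tested genes that were called higher, and the 4 lower members against 38.8% that were called lower. Most tested genes were thus called in one direction or the other, so a call alone sets no member apart, and the sizes of the changes are given for each member. The median log2 fold change of the 10 members was 0.62, against 0.01 over all tested genes. For the 4 tested KLF genes outside the members it was -0.33. When the change had to be larger than 1.5-fold, the threshold the study applied to mRNAs, 5 members were higher (KLF2, KLF3, KLF7, KLF9 and KLF13) and 2 were lower (KLF4 and KLF6). The background of that rule was 17.2% of genes higher and 18.4% lower.

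**Figure D2:**
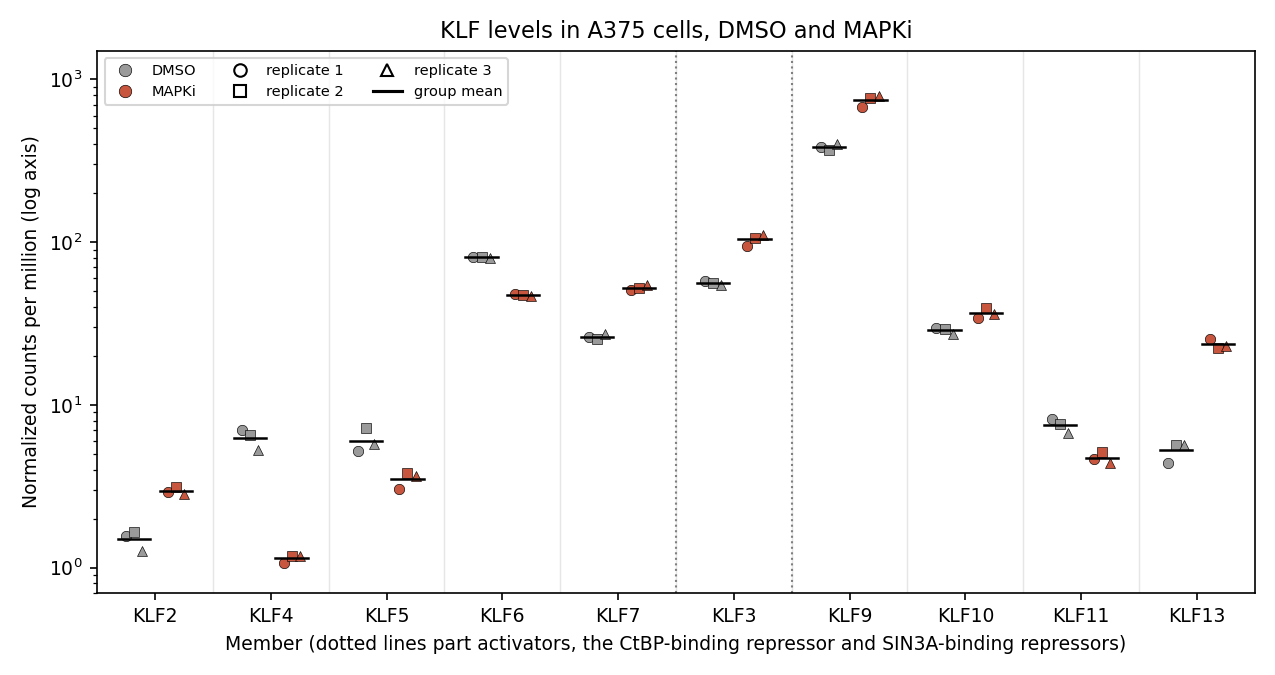
Normalised CPM on a log axis (y) of each member (x), ordered by role, in the DMSO libraries (grey) and the MAPKi libraries (red), with 1 point per library, its shape giving the replicate number, and a black line at the mean of 3. The 3 MAPKi points lie on 1 side of the 3 DMSO points for every member. The share of all tested genes with such a separation was not counted, and 39.3% of them were called higher and 38.8% lower. The widest gaps are those of KLF4 (1.07 to 1.18 against 5.27 to 6.96 CPM) and KLF13 (22.2 to 25.4 against 4.39 to 5.68 CPM).

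Among the activators, KLF4 was measured at 6.96, 6.51 and 5.27 CPM in the DMSO libraries and at 1.07, 1.18 and 1.18 CPM in the MAPKi libraries. The groups did not overlap, and the MAPKi values rest on 35 to 44 reads per library. The log2 fold change of KLF4 was -2.44 ± 0.15 (SE, n = 3 against 3, adjusted p 6.11e-07). KLF5, known for proliferation of intestinal crypt cells, was at 5.17, 7.18 and 5.74 CPM in DMSO and at 3.06, 3.79 and 3.65 CPM in MAPKi libraries. It fell by 0.78 on the log2 scale (SE 0.15, adjusted p 0.00119), all 3 MAPKi libraries lay below the DMSO libraries, and its fall did not pass the 1.5-fold rule (adjusted p 0.0961). KLF6, a factor of wound responses that is described as a tumour suppressor, was at 81.1, 81.1 and 79.8 CPM in DMSO and at 47.8, 47.1 and 46.9 CPM in MAPKi libraries. These were the tightest groups among the 10 members, and KLF6 fell by 0.77 on the log2 scale (SE 0.04, adjusted p 7.69e-08).

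The other two activators moved the opposite way. KLF2, which keeps endothelial cells and T cells quiescent, was at 1.56, 1.65 and 1.26 CPM in DMSO and at 2.93, 3.11 and 2.82 CPM in MAPKi libraries. Its log2 fold change was 0.99 ± 0.17 (SE, adjusted p 0.00055), on 43 to 105 reads per library, and the groups did not overlap. Its rise passed the 1.5-fold rule (adjusted p 0.0171), but not without DMSO replicate 3 (0.0560), with a GC correction (0.0596, or 0.063 with the replicate block as well), in a fit of all 12 libraries (0.0965) or in DESeq2 (0.247). KLF7, known for axon outgrowth in neurons, was at 26.1, 25.4 and 27.2 CPM in DMSO and at 50.5, 52.4 and 54.5 CPM in MAPKi libraries. The groups stood far apart for their spread, and the log2 fold change was 1.00 ± 0.05 (SE, adjusted p 1.32e-07). Of the 5 activators, 2 thus rose and 3 fell, and their median log2 fold change was -0.77.

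KLF3, the CtBP-binding repressor, was at 57.6, 56.3 and 54.4 CPM in DMSO and at 94.3, 107 and 111 CPM in MAPKi libraries. It rose by a log2 fold change of 0.89 ± 0.06 (SE, adjusted p 1.11e-06), with no overlap of the groups. Of the 4 SIN3A-binding repressors, KLF9, KLF10 and KLF13 rose and KLF11 fell. KLF13, known as a regulator of chemokine expression in T cells, was at 4.39, 5.67 and 5.68 CPM in DMSO and at 25.4, 22.2 and 23.0 CPM in MAPKi libraries. The lowest MAPKi library was well above the highest DMSO library, and the log2 fold change was 2.16 ± 0.11 (SE, adjusted p 1.37e-07). KLF9 was at 386, 366 and 402 CPM in DMSO and at 678, 774 and 786 CPM in MAPKi libraries. It rose by 0.96 ± 0.06 (SE, adjusted p 9.74e-07) on the log2 scale, again without overlap.

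KLF10 and KLF11, known as early genes induced by TGF-β, moved less and in opposite directions. KLF10 was at 29.7, 29.1 and 27.2 CPM in DMSO and at 34.2, 39.3 and 36.1 CPM in MAPKi libraries. The groups did not overlap, but the log2 fold change was the smallest of the 10, 0.35 ± 0.06 (SE, adjusted p 0.000736). It was no longer called when all 12 libraries shared 1 estimate of the spread (adjusted p 0.151). KLF11 was at 8.23, 7.66 and 6.76 CPM in DMSO and at 4.64, 5.11 and 4.40 CPM in MAPKi libraries. It fell by 0.68 on the log2 scale (SE 0.11, adjusted p 0.000437), with all MAPKi libraries below the DMSO libraries, and did not pass the 1.5-fold rule (adjusted p 0.198). With the spread estimated over all 12 libraries, KLF4 and KLF13 were the 2 members past that rule.

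In Gln-depleted cells, 6 of the 10 members were upregulated, KLF4 (14.1-fold), KLF7 (4.96-fold), KLF5 (4.93-fold), KLF3 (2.84-fold), KLF10 (2.58-fold) and KLF9 (2.55-fold), and none was called lower. All 10 members were tested, and 9.44% of all 12504 tested genes were called higher and 8.29% lower in this comparison. The count of 0 lower members in edgeR was also 0 at an unadjusted p under 0.05, and 0 in DESeq2. The median log2 fold change of the members was 1.36, against 0.00 over all tested genes. For the 4 tested KLF genes outside the members it was 0.02, so the members' median does not stand for the whole family. Past the 1.5-fold rule, 4 members were higher (KLF4, KLF5, KLF7 and KLF10) and 0 lower, against 3.47% of genes higher and 2.10% lower. The same-numbered CTRL and Gln-depleted libraries moved together across genes, and replicate 1 forms the first experimental batch of the labels and replicates 2 and 3 the second. With the replicate number as a block, 7 members were called higher, now with KLF13, against 25.2% of all genes, and the same 7 passed the 1.5-fold rule, against 8.85% of all genes.

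**Figure D3:**
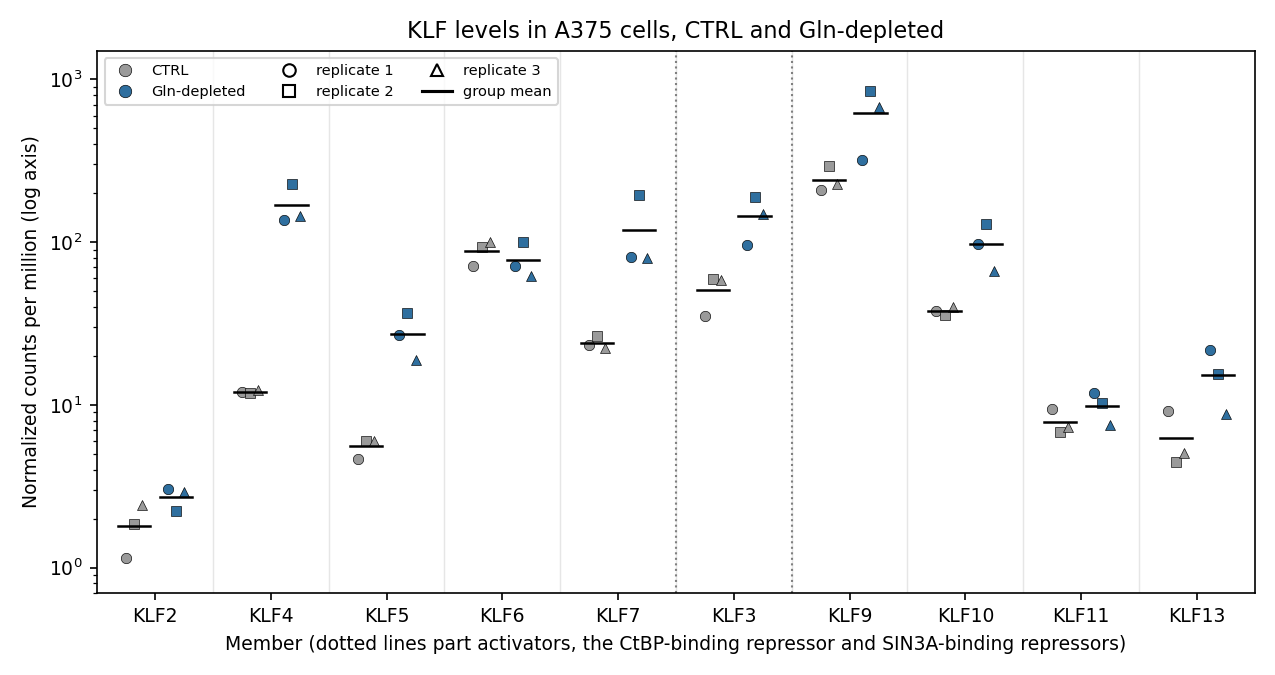
Normalised CPM on a log axis (y) of each member (x), ordered by role, in the CTRL libraries (grey) and the Gln-depleted libraries (blue), with 1 point per library, its shape giving the replicate number, and a black line at the mean of 3. KLF4 has the widest gap, 11.7 to 12.4 CPM against 137 to 229 CPM, the groups of KLF2, KLF6, KLF11 and KLF13 overlap, and the square of Gln-depleted replicate 2 is the top blue point for KLF3, KLF4, KLF5, KLF6, KLF7, KLF9 and KLF10.

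KLF4 was at 11.97, 11.7 and 12.4 CPM in the CTRL libraries and at 137, 229 and 145 CPM in the Gln-depleted libraries. No other member had groups so far apart, and the log2 fold change was 3.82 ± 0.26 (SE, n = 3 against 3, adjusted p 0.000528). The log2 ratio of the pair in the first experimental batch was 3.52, and the fit of the second batch alone gave 3.95. KLF5 was at 4.64, 6.04 and 5.99 CPM in CTRL and at 26.8, 36.6 and 18.9 CPM in Gln-depleted libraries. Its groups did not overlap, its log2 fold change was 2.30 ± 0.29 (SE, adjusted p 0.00283), and the values were 2.53 in the first batch and 2.204 in the second. KLF7 was at 23.2, 26.3 and 22.4 CPM in CTRL and at 81.4, 195 and 80.2 CPM in Gln-depleted libraries. Gln-depleted replicate 2 stood far above the others, and all 3 were above CTRL. The log2 fold change of KLF7 was 2.31 ± 0.37 (SE, adjusted p 0.00629), with 1.81 in the first batch and 2.50 in the second. Its rise past the 1.5-fold rule was lost without CTRL replicate 2 (adjusted p 0.0559) or CTRL replicate 3 (adjusted p 0.0627).

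KLF6 and KLF2 were not called. KLF6 was at 71.2, 93.9 and 100.4 CPM in CTRL and at 71.1, 99.9 and 61.9 CPM in Gln-depleted libraries, which overlapped. Its log2 fold change was -0.19 ± 0.24 (SE, adjusted p 0.614), with -0.0017 in the first batch and -0.26 in the second. KLF2 was at 1.14, 1.85 and 2.44 CPM in CTRL and at 3.02, 2.21 and 2.90 CPM in Gln-depleted libraries, with overlap. Its log2 fold change was 0.58 ± 0.37 (SE, adjusted p 0.294), with a log2 ratio of 1.40 in the first batch and 0.25 in the second. The first batch is 1 pair of libraries, and a difference between the batches was not tested.

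Among the repressors, KLF3 was at 35.2, 59.3 and 58.7 CPM in CTRL and at 95.7, 190 and 149 CPM in Gln-depleted libraries. The pair of replicate 1 was the lowest of both groups, and the groups did not overlap. KLF3 rose by a log2 fold change of 1.505 ± 0.31 (SE, adjusted p 0.0154), with 1.45 in the first batch and 1.52 in the second, and was no longer called without Gln-depleted replicate 2 (adjusted p 0.0612) or replicate 3 (adjusted p 0.0621). With the replicate block the adjusted p was 0.000203, and KLF3 passed the 1.5-fold rule (adjusted p 0.000944), which it missed without the block (adjusted p 0.0589). KLF9 was at 209, 292 and 226 CPM in CTRL and at 322, 855 and 681 CPM in Gln-depleted libraries. The lowest Gln-depleted library was close above the highest CTRL library, and the log2 fold change was 1.35 ± 0.34 (SE, adjusted p 0.0316). The rise of KLF9 was 0.63 in the first batch and 1.57 in the second. Its call was lost in 5 of the 6 fits that left out a library, with adjusted p-values of 0.0659, 0.0651 and 0.0947 without CTRL replicates 1, 2 and 3 and of 0.114 and 0.111 without Gln-depleted replicates 2 and 3, while the block gave 0.00203 and 0.0156 for the 1.5-fold rule.

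KLF10 was at 37.7, 35.7 and 39.7 CPM in CTRL and at 96.9, 129 and 66.4 CPM in Gln-depleted libraries. The groups did not overlap, and the log2 fold change was 1.37 ± 0.26 (SE, adjusted p 0.0111), with 1.36 in the first batch and 1.37 in the second. Its rise was past the 1.5-fold rule by a small margin (adjusted p 0.0489), and missed it in DESeq2 (0.0998) and in 5 of the 6 fits that left out a library. The adjusted p-values of that rule were 0.0874, 0.152 and 0.127 without CTRL replicates 1, 2 and 3, and 0.0595 and 0.172 without Gln-depleted replicates 1 and 2, while the replicate block gave 0.0135. KLF13 was at 9.16, 4.47 and 5.08 CPM in CTRL and at 21.7, 15.4 and 8.81 CPM in Gln-depleted libraries. Both libraries of replicate 1 were the highest of their group, so the groups overlapped although each Gln-depleted library was above the CTRL library of its number, by 1.25, 1.79 and 0.79 on the log2 scale. The log2 fold change of KLF13 was 1.30 ± 0.40 (SE, adjusted p 0.0563). The adjusted p was 0.0027 with the replicate block, 0.00858 in DESeq2, 0.028 without CTRL replicate 1 and 0.0437 without Gln-depleted replicate 3. It was 0.158 and 0.157 without CTRL replicates 2 and 3, and 0.109 and 0.142 without Gln-depleted replicates 1 and 2. KLF11 was at 9.47, 6.81 and 7.29 CPM in CTRL and at 11.8, 10.3 and 7.48 CPM in Gln-depleted libraries. The groups overlapped, and its log2 fold change was 0.33 ± 0.26 (SE, adjusted p 0.408), with 0.32 in the first batch and 0.33 in the second.

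The 2 experiments were then set against each other, by testing the difference of each member's log2 fold changes over the 12 libraries. The responses of KLF4, KLF5, KLF7, KLF10 and KLF11 differed, all in the sense of a higher value with Gln depletion than with MAPKi, and 40.6% of 12617 genes were called in this test. KLF4 had the largest difference of the members, -6.22 ± 0.30 (SE, adjusted p 6.54e-08), from a fall of 2.44 to a rise of 3.82. KLF5 likewise fell in one experiment and rose in the other, with a difference of -3.04 ± 0.33 (SE, adjusted p 3.14e-05). KLF7 and KLF10 rose in the tests of both experiments but more with Gln depletion, with differences of -1.27 ± 0.40 (SE, adjusted p 0.0231) and -0.98 ± 0.27 (SE, adjusted p 0.0129). With the spread estimated over all 12 libraries, the rise of KLF10 with MAPKi was not called (adjusted p 0.151). The call of KLF7 was lost without MAPKi replicate 1 (adjusted p 0.0527). KLF11 fell with MAPKi and was not called with Gln depletion, and the difference was -0.96 ± 0.28 (SE, adjusted p 0.017).

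For KLF2, KLF3, KLF6, KLF9 and KLF13 the difference was not called. With the replicate block, 8 members differed, against 61.0% of all genes, and the added ones were KLF3 (-0.56, adjusted p 0.00581), KLF6 (-0.53, adjusted p 0.0424) and KLF13 (0.94, adjusted p 0.0163). Without Gln-depleted replicate 1, 8 members differed as well, with KLF3, KLF9 and KLF13 added. Of all 12605 genes of that fit, 3099 and 2988 were called in the 2 directions, against 2506 and 2612 of 12617 in the main test. Among the called members, KLF13 was the one with the higher value with MAPKi in these 2 fits. In experimental batch 2 alone, KLF2 was also called with the higher value with MAPKi (0.77, adjusted p 0.0497). KLF9 was called there with the lower value (-0.57, adjusted p 0.0221). In the main test the difference was -0.35 ± 0.38 (SE, adjusted p 0.488) for KLF9 and 0.45 ± 0.38 (SE, adjusted p 0.374) for KLF2. These intervals still allow a difference in either direction. The libraries of the 2 experiments were sequenced in different sequencing batches, so levels were not tested between DMSO and CTRL. Side by side, KLF4 was at 5.27 to 6.96 CPM in DMSO and 11.7 to 12.4 CPM in CTRL libraries, and KLF9 at 366 to 402 and 209 to 292 CPM.

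**Figure D4:**
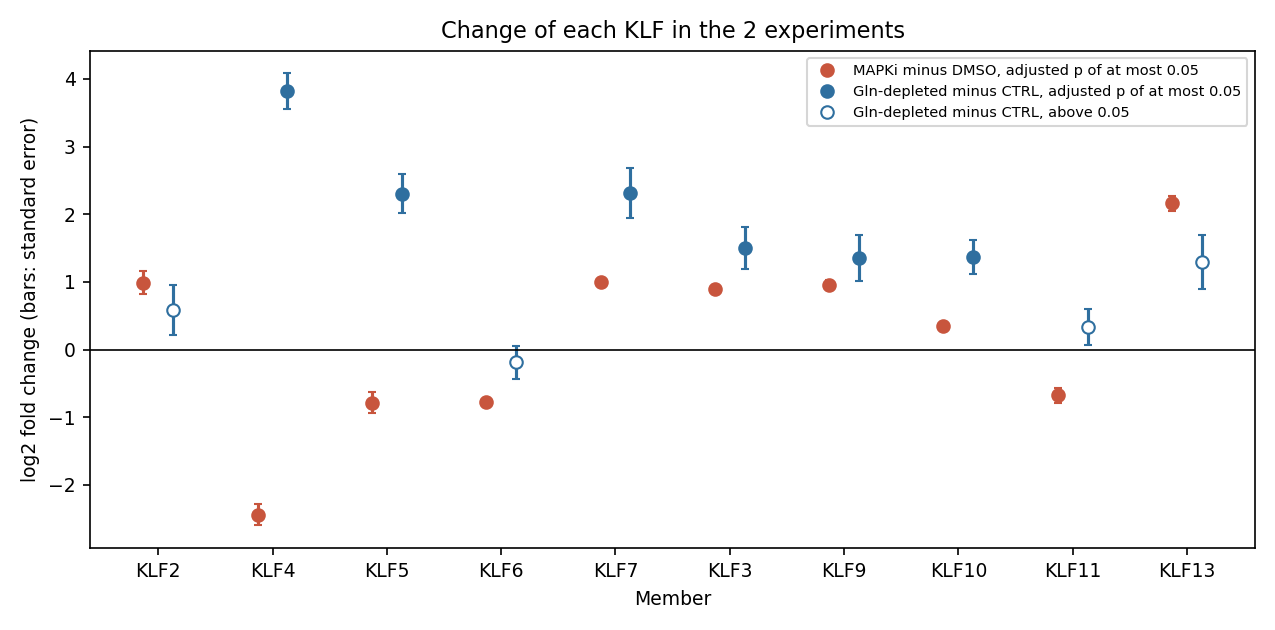
Log2 fold change (y, points, with bars for the standard error) of each member (x, ordered by role) for MAPKi minus DMSO in red and Gln-depleted minus CTRL in blue, open where the adjusted p was above 0.05. KLF4 and KLF5 have filled points on opposite sides of 0 (-2.44 and 3.82, -0.78 and 2.30), while KLF3, KLF7, KLF9 and KLF10 are above 0 in both experiments.

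The rest of the zinc-finger family was given by its counts. Of the 8 other KLF genes, 4 were tested, and with MAPKi 1 rose (KLF12, 0.78 on the log2 scale, adjusted p 2.95e-07) and 2 fell (KLF15, -0.37, adjusted p 0.000974, and KLF16, -0.65, adjusted p 5e-05). With Gln depletion, 0 of the 4 were called in edgeR, 1 had an unadjusted p under 0.05 and 1 was called in DESeq2. With the replicate block KLF12 was called higher (log2 fold change 1.09, adjusted p 0.000589). KLF12, like KLF3, is a repressor that binds CtBP, and with MAPKi these rose by 0.78 and 0.89 on the log2 scale. KLF1, KLF8, KLF17 and KLF18 had too few reads to be tested. Of the 9 SP factors, close relatives that bind the same GC boxes, 5 were tested. SP2 rose with MAPKi (0.29, adjusted p 0.00127) and with Gln depletion (0.69, adjusted p 0.0487), SP8 fell in both (-1.41, adjusted p 0.000106, and -1.94, adjusted p 0.0143) and SP4 fell with MAPKi (-0.95, adjusted p 4.76e-07). The widely expressed SP1 and SP3 were not called in either experiment, apart from SP3, which was called higher with Gln depletion in the fit with the replicate block.

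The mRNAs of the members' partner proteins moved in both directions with MAPKi. Of 9 cofactor genes, 4 rose, the acetyltransferases KAT2B (2.04), CREBBP (0.89) and EP300 (0.47) and the deacetylase HDAC1 (0.72), and 4 fell, the corepressors CTBP2 (-0.94), CTBP1 (-0.16) and SIN3A (-0.32) and the deacetylase HDAC2 (-0.89), all as log2 fold changes. The median over the 9 was 0.10, and with Gln depletion 0 were called in edgeR or DESeq2 and 1 had an unadjusted p under 0.05, whereas with the block CREBBP was higher and KAT2B, SIN3A and SIN3B were lower. Of 4 genes for ubiquitin ligases known to act on KLF proteins, WWP1 and VHL rose and BTRC and FBXW7 fell with MAPKi, by at most 0.29 on the log2 scale, and VHL rose with Gln depletion (1.02, adjusted p 0.0101), joined by BTRC with the replicate block (0.56, adjusted p 0.0124). In the branch of the kinases MAP2K5 and MAPK7 and their MEF2 effectors, 4 of 6 genes were tested. MEF2C rose with MAPKi (0.61, adjusted p 2.46e-05) and fell with Gln depletion (-1.75, adjusted p 0.00167), MAP2K5 rose in both (0.48, adjusted p 0.000224, and 0.79, adjusted p 0.0276), and MEF2A rose with MAPKi (0.20, adjusted p 0.00468). With Gln depletion the log2 fold change of MEF2A was 0.87 (adjusted p 0.0536), and it was called with the replicate block (0.89, adjusted p 0.0014). MEF2C and KLF4 thus had opposite signs in each experiment. MEF2C and KLF2 both rose with MAPKi, whereas with Gln depletion MEF2C fell and KLF2 was not called (0.58, adjusted p 0.294). A link between these genes was not tested.

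Of 7 genes known as direct targets of a KLF protein, 6 were tested. CDKN1A, the p21 inhibitor of the cell cycle and a known target of KLF4 and KLF6, rose in both experiments (1.05, adjusted p 8.05e-08, and 1.47, adjusted p 0.00944). PDGFA, a known target of KLF5, fell with MAPKi (-0.67, adjusted p 0.000164) and rose with Gln depletion (2.33, adjusted p 0.00117), as KLF5 did. SMAD7, known to be repressed by KLF10 and KLF11, also fell with MAPKi (-1.44, adjusted p 5.1e-07) and rose with Gln depletion (1.39, adjusted p 0.00323). S1PR1 and NOS3, endothelial targets of KLF2, fell with MAPKi (-2.11, adjusted p 0.000636, and -0.20, adjusted p 0.00276), in which KLF2 itself rose, and S1PR1 was at about 1 CPM or less in DMSO. LGALS3, a gene repressed by KLF3, rose with MAPKi (0.77, adjusted p 1.71e-07). With Gln depletion, LGALS3 (-0.57, adjusted p 0.0999), NOS3 (-0.59, adjusted p 0.0839) and S1PR1 (-1.43, adjusted p 0.157) were not called, while with the replicate block all 3 were called lower (adjusted p 0.0064, 0.00562 and 0.0488), and DESeq2 called 1 of them, NOS3. The list median was -0.44 with MAPKi and 0.41 with Gln depletion, and RNA levels do not show what the KLF proteins did at these genes.

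For each member, the 1 tested gene whose profile was most alike was also found, by Pearson's r of log2 CPM over the 12 libraries, centred within each experiment, among 12286 genes. The highest r ranged from 0.942 (KLF2, with KLHL42) to 0.996 (KLF3, with KMT5B). For KLF4 it was MOK (0.991), for KLF5 MRPS10 (0.986), for KLF6 TGS1 (0.975), for KLF7 CSNK1G1 (0.988), for KLF9 TMEM167B (0.978), for KLF10 AVL9 (0.983), for KLF11 MRPL49 (0.957) and for KLF13 PAX3 (0.981). These values are a description over libraries that share the 2 group differences, and no member was the nearest neighbour of another member.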

How the data were processed

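RNA from 12 libraries of A375 cells was rRNA-depleted and sequenced by the submitters, whose labels call it cytoplasmic RNA. The molecule field of the labels and the study's methods speak of total RNA, and the sources used here do not settle which it was. Per the labels and methods, the authors trimmed reads with fastp 0.20.1, aligned them to GRCh38.p13 with HISAT2 2.2.1 and counted reads on exons with HTSeq 0.13.5, and the deposited values are raw counts per gene. Strand and multi-mapped reads are not given in the sources used here. Counts were normalised by TMM and tested within each experiment with the quasi-likelihood test of edgeR 4.0.16 in R 4.3.3, for protein-coding genes with a mean normalised count of at least 10, at a Benjamini-Hochberg adjusted p of 0.05, and against a 1.5-fold change with glmTreat. The difference of the experiments was a contrast over 12 libraries. DESeq2 1.42.0, a GC correction, batch terms, other filters and each library left out were alternatives. Scripts were tested on simulated data. Members and gene lists were chosen with earlier results of these data known, and every member is named. Of the 44659 genes, 37037 matched RefSeq by a current or older symbol. Exonic lengths came from GENCODE 44. Same-numbered libraries deviated together with Gln depletion (r = 0.598, 0.460 and 0.394). The main tests had no term for this pairing, and the fit with the replicate number as a block was an alternative. Depth limits KLF2 (40 to 105 reads per library) and KLF4 with MAPKi (35 to 44 reads) most.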

Additional observations from a re-analysis of the deposited data

How the results depend on the processing

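The direction of all 10 members held in every alternative, for MAPKi, for Gln depletion and for the difference. The counts of 6 higher and 4 lower members with MAPKi were 6 and 4 in each fit that left out a library, and 6 members higher with Gln depletion became 4 to 6. The 7 members past 1.5-fold with MAPKi became 6 to 8 and the 4 with Gln depletion 2 to 5, and the 5 that differed between the experiments became 4 to 8. Over all genes, the fits that left out a library called 477 to 1326 higher with Gln depletion. In the difference they called 2061 to 3099 with the higher value with MAPKi and 2157 to 2988 with the lower. At an adjusted p of 0.01, 3 members were higher with Gln depletion (KLF4, KLF5 and KLF7), 2 were past 1.5-fold and 2 differed between the experiments. Of all 12504 genes, 388 were then higher with Gln depletion and 174 were higher past 1.5-fold. Of 12617 genes, 1631 and 1720 differed in the 2 directions. A fit of all 12 libraries left 2 members past 1.5-fold with MAPKi. With Gln depletion, 7 members were past 1.5-fold with the replicate block, with the block and a GC correction, and with the experimental batch as a term. Over all genes, 1106 of 12504, 1005 of 12373 and 1021 of 12504 were higher past 1.5-fold in these fits, against 434 of 12504 in the main test. In the difference, 8 members were called with the replicate block, 8 with the batch term and 9 in experimental batch 2 alone. Over all genes, these fits called 3704, 3621 and 3650 with the higher value with MAPKi, against 2506 in the main test. With the lower value they called 3992, 3962 and 3816, against 2612. The cause of the larger counts was not tested. With MAPKi, same-numbered libraries correlated by 0.0741, 0.0535 and 0.0526, and each library correlated best with its own number. This pairing was weak, and the replicate block left the counts at 6 and 4. A minimum mean count of 100 left KLF2 untested.

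KLF13 has 2 further rows in the table with at most 6 reads per library, and reads that map to several copies cannot be assigned. KLF3 overlaps the antisense KLF3-AS1 (27 to 132 reads per library) and KLF9 overlaps KLF9-DT (274 to 875), and without the strand their reads cannot be told apart. Processed pseudogenes of KLF2, KLF3, KLF4 and KLF7 are annotated and were not analysed here.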
